A study of Mus musculus with 4 samples.

Results

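Glycogen is a branched glucose polymer that many cells lay down as a store and draw on when glucose supply is short. Its chain is started on the protein glycogenin, lengthened by glycogen synthase from UDP-glucose, branched by the branching enzyme and shortened again by glycogen phosphorylase, which releases glucose 1-phosphate. Protein phosphatase 1 is brought to the glycogen particle by targeting subunits and there removes phosphates, which switches the synthase on and the phosphorylase off. The measurements below cover 9 genes of this cycle in fibroblasts taken from tumours (cancer-associated fibroblasts, CAFs). The 9 are Gyg, Gys1, Gbe1, Ugp2, Pgm2, Pygb, Pygl, Ppp1r3b and Ppp1r3c. They were taken by symbol from a table of 23377 genes, and all 9 were found there.

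Polyadenylated RNA was sequenced from mouse CAFs in 4 libraries. The series concerns lactate that tumour cells secrete and how tumours adapt to inhibitors of the MET and EGFR receptors. The labels give 2 libraries as CAFs associated with resistant tumours (titles RES4, replicates 1 and 2) and 2 as CAFs associated with normal tumours (titles WTA, replicates 1 and 2). They give no strain, age, tumour line, treatment or sort. The replicates of a group share 1 title name, so each group may come from 1 tumour or culture, and the spread between replicates may be technical in part. In bulk RNA of this kind, fewer cells of a type and less RNA per cell cannot be told apart.

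The libraries held 2785936 to 5558541 reads, with the normal libraries the deeper, and 12001 genes passed the filter on low counts. The fibroblast label was checked against 10 markers, which summed to 7759 and 7213 CPM (a library's reads brought to 1 common size after TMM scaling) in the resistant and to 3093 and 2543 CPM in the normal libraries. All 9 of these markers that were tested were higher in resistant tumour CAFs, and Lum, the tenth, had no read in the normal libraries. The normal sum was mostly collagen. There Col1a1, Col1a2, Col3a1, Pdgfrb and Thy1 averaged 1073, 1056, 381, 212 and 69.1 CPM. Pdgfra, Pdpn, Fap and Dcn averaged only 18.6, 7.24, 1.04 and 0.46 CPM in the normal libraries. A list of 10 Schwann cell and neural crest markers summed to 10.3 and 9.91 CPM in the resistant and to 1250 and 1108 CPM in the normal libraries, and all 6 that were tested, Sox10 and Ngfr among them, were lower in resistant tumour CAFs. Muscle markers, from a tissue rich in glycogen, summed to 2.66 to 8.08 CPM with Ckm, Myod1 and Myog at 0 reads, and the hepatocyte genes Alb and Ttr had no read either. Of 5 adipocyte markers, Fabp4 averaged 20.1 CPM in the resistant and 0.58 CPM in the normal libraries while Adipoq, Lep and Cfd were at 0 reads. Tested markers near 0 in 1 group passed the low-count filter through the other group alone. The part of these marker differences in the results below was not tested.

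The set was chosen by the log2 fold change of Ppp1r3c, which was among the most raised genes of this same comparison. The values of the 9 genes between the groups are therefore given as a description, with no test, and nothing is supported with them. P-values are given only for genes outside the set. For the 9, only the side of the threshold is given, from the fit here and, for some, from the authors' own calls. Nothing is read from either. Log2 fold changes are resistant minus normal, with the standard error (SE) of a fit over all 12001 genes, and means are given ± SD over the 2 libraries of a group.

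The genes that were high in resistant tumour CAFs were the targeting subunits Ppp1r3c and Ppp1r3b, the liver-type phosphorylase Pygl, the synthase Gys1 and the phosphoglucomutase listed as Pgm2. The priming protein gene Gyg, the UDP-glucose maker Ugp2, the brain-type phosphorylase Pygb and the branching enzyme gene Gbe1 had log2 fold changes between 0.16 and 0.71. Promoter sequences are shown for Ppp1r3c, Pygl and Gys1, because these genes of the set were high together; they are RefSeq windows of the 250 bases before the annotated start, on build GRCm38.p6, 5′ to 3′ along the gene. Capitals mark ACGTG and GCGTG on either strand, the core letters that hypoxia-inducible factors are known to bind; overlapping matches are merged.
Ppp1r3c, chr19:36736605-36736854, minus strand: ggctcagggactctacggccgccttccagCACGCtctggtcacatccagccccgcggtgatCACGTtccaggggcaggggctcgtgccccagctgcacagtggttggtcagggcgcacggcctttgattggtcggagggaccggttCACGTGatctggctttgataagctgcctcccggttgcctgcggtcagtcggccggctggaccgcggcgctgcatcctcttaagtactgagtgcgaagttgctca
Pygl, chr12:70227684-70227933, minus strand: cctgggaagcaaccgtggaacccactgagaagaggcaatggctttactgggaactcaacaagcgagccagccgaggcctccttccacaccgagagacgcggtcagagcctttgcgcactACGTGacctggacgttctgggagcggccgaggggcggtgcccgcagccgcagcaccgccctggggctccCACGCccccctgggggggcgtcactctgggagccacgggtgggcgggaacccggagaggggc
Gys1, chr7:45434589-45434838, plus strand: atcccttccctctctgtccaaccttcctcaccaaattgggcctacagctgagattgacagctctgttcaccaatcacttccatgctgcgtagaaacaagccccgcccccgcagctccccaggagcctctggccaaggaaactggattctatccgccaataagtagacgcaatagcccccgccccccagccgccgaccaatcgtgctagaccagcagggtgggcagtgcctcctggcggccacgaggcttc

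In the Ppp1r3c window the match at 104 to 99 bases before the start reads CACGTG, which holds ACGTG on both strands and is also the letters of an E-box; further matches lie at 189 to 185 bases (ACGTG) and 221 to 217 bases (GCGTG). The Pygl window holds ACGTG at 131 to 127 bases and GCGTG, on the opposite strand, at 62 to 58 bases before the start, and the Gys1 window holds neither. RefSeq windows were found by symbol for 8 of the 9 genes, all but Ppp1r3b, and 7 were read, without Pgm2, whose symbol is ambiguous. ACGTG or GCGTG was found in 5 of the 7 genes: Ppp1r3c, Pygl, Pygb, Gyg and Ugp2. Ugp2 has windows from different starts and a match in any of them counted, whereas the shares that follow are per window. Of all 32851 RefSeq windows of this length, 38.6% held ACGTG or GCGTG and 6.02% held CACGTG. These letters were thus found in genes of the set that were high in resistant tumour CAFs and in others that were not, and a match is a description of the sequence only.

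**Figure D1:**
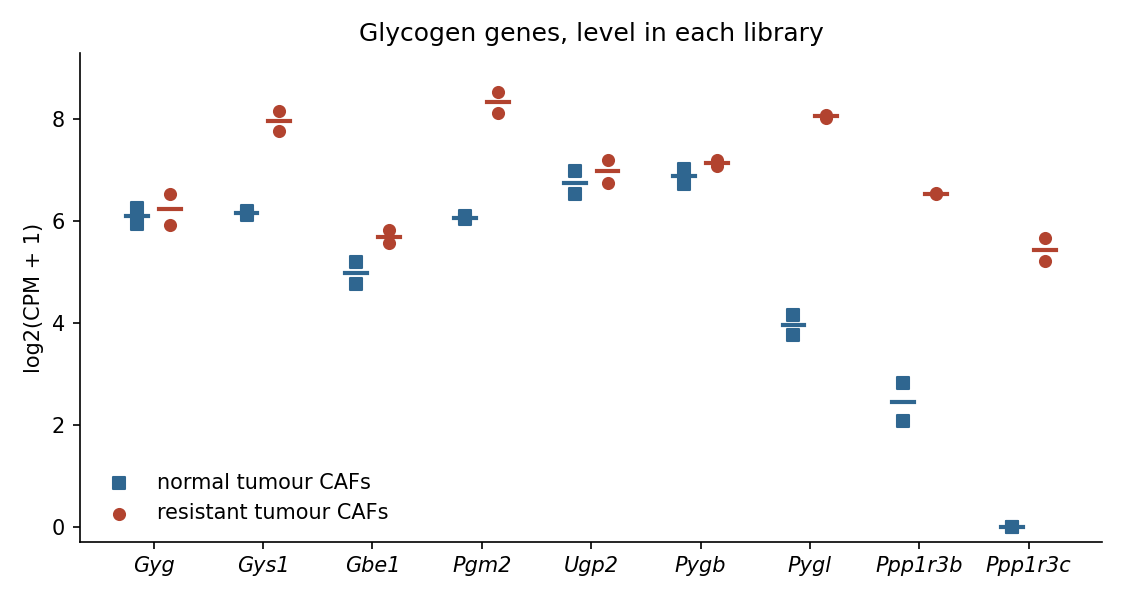
Level of each glycogen gene in each library, as log2(CPM + 1). Points are libraries (circles resistant, squares normal, 2 each) and short lines are group means; the groups are widest apart for Ppp1r3c, Ppp1r3b and Pygl, and they overlap for Gyg and Ugp2.

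Ppp1r3c encodes a subunit, also called PTG for protein targeting to glycogen, that brings protein phosphatase 1 to glycogen, glycogen synthase and phosphorylase. It had 95 and 135 reads in the resistant libraries, or 36.1 and 49.5 CPM, and 0 reads in both normal libraries. A count of 0 allows up to 3 reads, or 0.301 CPM over the 2 normal libraries. Against that floor Ppp1r3c, with its resistant reads as counted, was 143-fold higher in resistant tumour CAFs. The counting error and replicate spread of the resistant reads are not in this figure, so a full lower bound would be smaller. Ppp1r3c passed the low-count filter through the resistant libraries alone. Its difference between the groups is the value for which the set was proposed.

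Ppp1r3b encodes the related subunit first described in liver. Its libraries stood at 90.9 and 92.5 CPM in resistant and 3.22 and 6.06 CPM in normal tumour CAFs. The resistant replicates lay close together and the groups did not overlap. The log2 fold change was 4.27 ± 0.46, and the normal value rested on 13 and 36 reads.

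The phosphorylases, which start glycogen breakdown, were unlike each other. Pygl, the liver-type enzyme, reached 260.6 and 270.9 CPM in the resistant libraries and 16.8 and 12.6 CPM in the normal ones, a log2 fold change of 4.18 ± 0.33. Pygb, the brain-type enzyme, stood at 133.9 and 145 CPM in the resistant and 105.5 and 128.4 CPM in the normal libraries, a log2 fold change of 0.25 ± 0.29. Its groups did not overlap, but the gap between them was smaller than the gap between the normal replicates. Pygm, the muscle-type enzyme, had 1 read in resistant replicate 1 and 1 in normal replicate 2.

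Per length, as reads per kilobase of exon, Pygl made up 57.5% and 56.6% of the phosphorylase signal in the resistant libraries and 10.02% and 6.40% in the normal ones. The leading phosphorylase transcript was therefore Pygl in both resistant libraries and Pygb in both normal libraries. The group means of the Pygl share were 57.0% ± 0.63 and 8.21% ± 2.56. Counted in reads without length, the shares were 66.0% (95% exact binomial interval 63.0 to 68.9) and 65.1% (62.3 to 67.9) in resistant replicates 1 and 2, and 13.8% (10.9 to 17.1) and 8.94% (7.10 to 11.1) in normal replicates 1 and 2. These intervals cover counting error only, since the reads carry no molecular identifiers. The summed phosphorylase level was 65.8 and 69.4 CPM per kb in the resistant and 24.4 and 28.6 CPM per kb in the normal libraries.

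**Figure D2:**
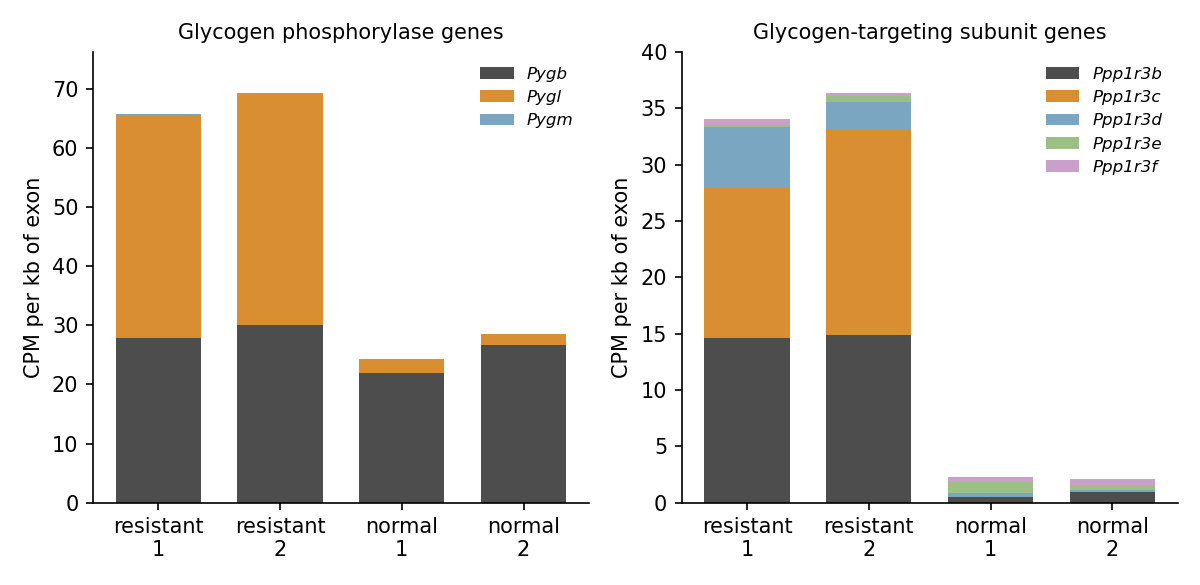
Composition of the glycogen phosphorylase genes (left) and of the glycogen-targeting subunit genes (right) in each library, as stacked CPM per kb of exon. Pygb differs little between libraries while Pygl fills most of the added height in the resistant libraries, and the targeting subunits sum to 34.0 and 36.4 CPM per kb in the resistant against 2.24 and 2.14 in the normal libraries.

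Gys1, the glycogen synthase of muscle and most other tissues, stood at 283.9 and 218 CPM in the resistant and 68.4 and 72.7 CPM in the normal libraries. The log2 fold change was 1.83 ± 0.28, and the lower resistant library was still far above both normal ones. Its exons overlap those of Ruvbl2 on the other strand over 310 bases (6.5% of its exonic length) in the GRCm38 annotation, and without strand such reads cannot be told apart. Gys2, the liver synthase, had no read in any library. Gbe1, the branching enzyme, stood at 55.9 and 46.2 CPM in the resistant and 26.3 and 35.9 CPM in the normal libraries, a log2 fold change of 0.71 ± 0.39. Its groups did not overlap, but the spread within each was about as wide as the gap between them.

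Gyg, glycogenin, the protein on which a new chain is started, stood at 92.1 and 59.8 CPM in the resistant and 60.2 and 75.4 CPM in the normal libraries. Both normal libraries lay inside the range of the resistant ones, and the log2 fold change was 0.16 ± 0.36. Ugp2, which makes UDP-glucose, the sugar donor, stood at 106.2 and 146.4 CPM in the resistant and 91.2 and 125.2 CPM in the normal libraries. Its groups overlapped too, with a log2 fold change of 0.22 ± 0.32.

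The phosphoglucomutases interconvert glucose 1-phosphate and glucose 6-phosphate and so join glycogen to glycolysis. The gene listed as Pgm2 stood at 277 and 371.1 CPM in the resistant and 64.4 and 67.2 CPM in the normal libraries, a log2 fold change of 2.30 ± 0.28 with no overlap. The gene listed as Pgm1, which is not among the 9, stood at 50.2 and 86.6 CPM in the resistant and 82.5 and 121.7 CPM in the normal libraries (-0.58 ± 0.37; adjusted p = 0.277 with edgeR's quasi-likelihood test). In RefSeq each of these symbols is listed as an older name of the other gene, and the count table gives symbols only. Which locus each symbol stands for in these data, and so which enzyme was high, cannot be told from the table, and neither is given a level per length.

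As a description of the set, 5 of the 9 genes (Ppp1r3c, Ppp1r3b, Pygl, Gys1 and Pgm2) lay past the threshold of the fit over all genes (adjusted p under 0.05, edgeR's quasi-likelihood test) on the higher side, where 15.5% of all tested genes lay. Ppp1r3c, with no normal read, could only fall on that side. On the lower side lay 0 of the 9, against 13.9% of all tested genes; the count was also 0 at an unadjusted p under 0.05 and with limma-voom, the likelihood ratio test and DESeq2. The group ranges lay apart with resistant higher for 7 of the 9, where 31.9% of all tested genes did, and apart with resistant lower for 0, against 32.9%. The median log2 fold change of the 9 was 1.83, against -0.0036 over all genes tested. Since the comparison itself brought the set up, nothing is read from these counts.

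**Figure D3:**
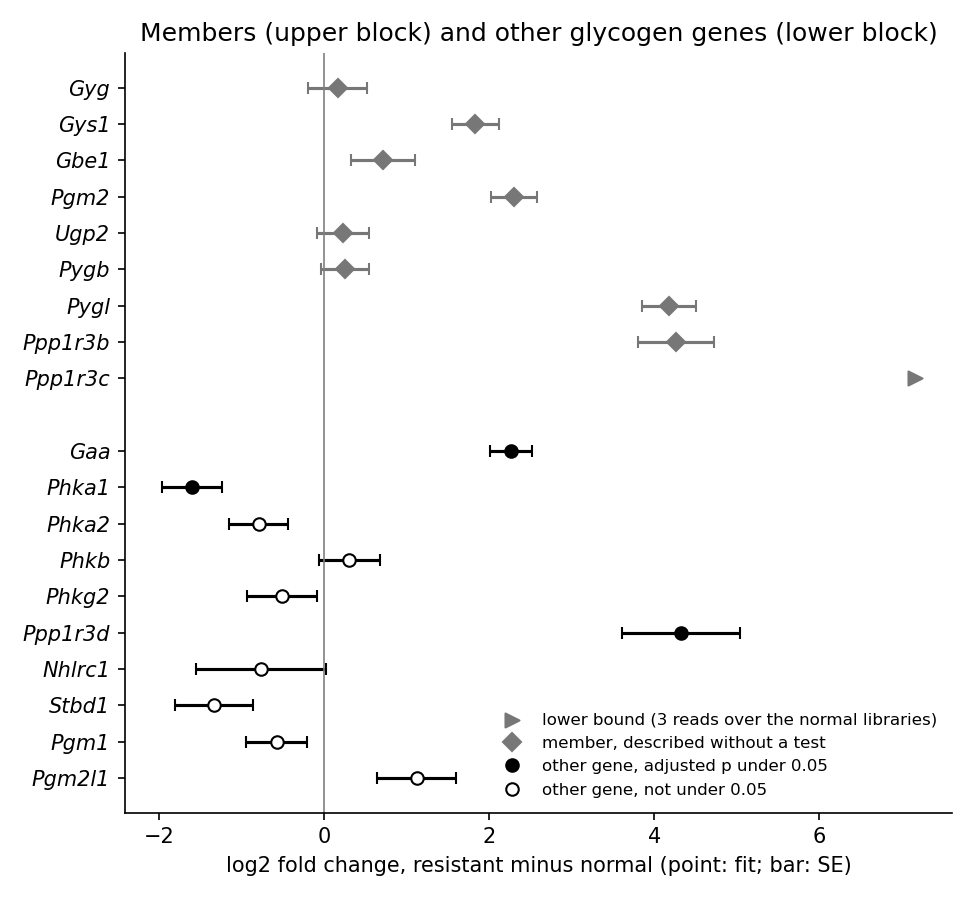
Log2 fold change, resistant minus normal, of the 9 glycogen genes (upper block, grey) and of 10 tested genes of the wider glycogen list (lower block). Bars are SE, and the arrowhead marks Ppp1r3c, with its resistant reads as counted, against the floor of 3 normal reads (143-fold). Filled circles mark wider-list genes with an adjusted p under 0.05: Gaa and Ppp1r3d to the right, Phka1 to the left.

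Per length, the order of 8 of the genes differed between the groups. In the resistant libraries Gys1 led with 52.4 ± 9.72 CPM per kb, followed by Ugp2 (41.2 ± 9.28), Pygl (38.5 ± 1.05), Gyg (32.4 ± 9.73) and Pygb (29.0 ± 1.6). Each gene overlapped the next in this order, whereas both Gys1 libraries lay above both of Pygl, Gyg and Pygb, and those of Ugp2 and Pygl above those of Pygb. Ppp1r3c (15.7 ± 3.48) and Ppp1r3b (14.8 ± 0.18) lay below Pygb and overlapped each other, and Gbe1 was lowest at 9.55 ± 1.28. In the normal libraries Ugp2 (35.3 ± 7.85), Gyg (28.9 ± 4.59) and Pygb (24.3 ± 3.36) led, each overlapping the next, with Ugp2 above Pygb in both libraries. Gys1 (14.7 ± 0.64), Gbe1 (5.80 ± 1.27), Pygl (2.14 ± 0.43) and Ppp1r3b (0.75 ± 0.32) followed, each apart from the next, and Ppp1r3c was at 0. Pygl thus stood below Gbe1 in the normal and above it in the resistant libraries, and both targeting subunits passed from below Gbe1 to above it.

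**Figure D4:**
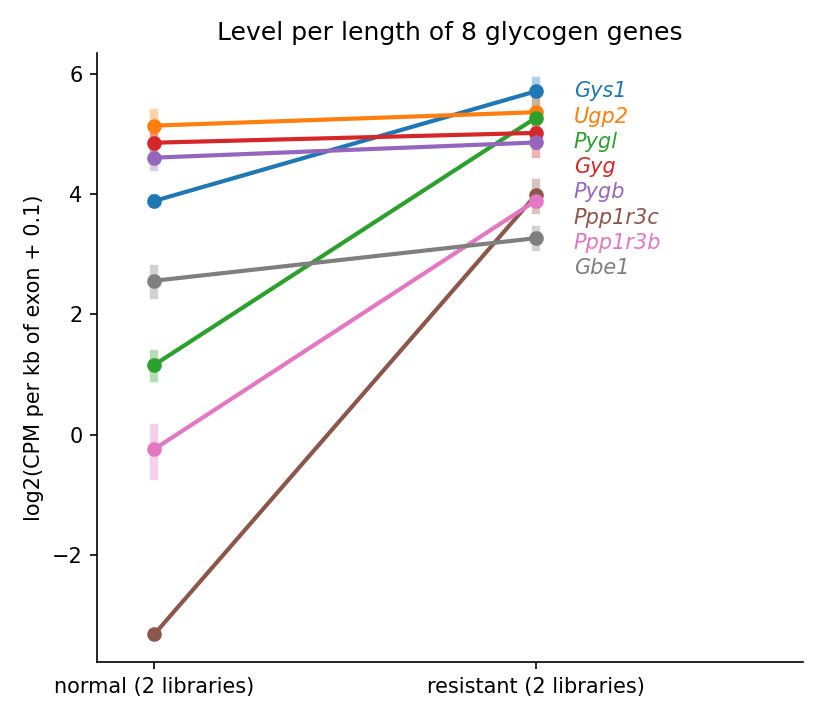
Mean level of 8 glycogen genes per length in normal and resistant tumour CAFs, as log2(CPM per kb of exon + 0.1), with shaded bars from the lower to the higher of the 2 libraries. Lines for Ugp2, Gyg and Pygb run nearly flat and are at the top on the normal side. On the resistant side the line of Gys1 ends above them, and that of Pygl above Gyg and Pygb. The lines of Pygl, Ppp1r3b and Ppp1r3c climb across the line of Gbe1.

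The wider glycogen list held 19 further genes of synthesis, breakdown and their control that were in the table, of which 11 were tested; another listed symbol, Gyg1, is an older name of Gyg. Of the 11, 2 rose (Gaa and Ppp1r3d) and 1 fell (Phka1), where 15.5% of all tested genes rose and 13.9% fell, and the median log2 fold change was -0.52. Adjusted p-values here come from edgeR's quasi-likelihood test over all genes. Ppp1r3d, another targeting subunit of protein phosphatase 1, had 47 and 22 reads in the resistant and 4 and 2 reads in the normal libraries, or 17.9 and 8.07 against 0.99 and 0.34 CPM. Its log2 rise was 4.32 ± 0.72 (adjusted p = 6.27e-04), with both resistant libraries above both normal ones. It passed the low-count filter through the resistant libraries alone, so a tested value could only be higher. Its value moved to 5.06 without normal replicate 1 and to 3.61 without normal replicate 2 and 3.66 without resistant replicate 1. Among the other subunits, Ppp1r3e had 1 to 10 reads and Ppp1r3f 4 to 18 reads a library, neither tested, and Ppp1r3a and Ppp1r3g, the first known from muscle, had no read in any library.

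Together, the 7 targeting subunit genes had 389 and 417 reads in the resistant and 36 and 63 reads in the normal libraries. Ppp1r3c made up 39.0% and 49.9% of their signal per kb in the resistant libraries, Ppp1r3b 43.0% and 40.9%, and Ppp1r3d 16.1% and 6.79%. Per kb the shares of Ppp1r3b and Ppp1r3c were thus close to each other there, in an order that differed between the replicates. This rests on the division by length. Counted in reads, Ppp1r3b had 239 and 252 and Ppp1r3c 95 and 135 in resistant replicates 1 and 2, so Ppp1r3b led in both. In the normal libraries Ppp1r3c took 0%, for which the exact 95% binomial interval in reads reached up to 9.74% and 5.69%, and Ppp1r3b took 23.1% and 45.6%.

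Breakdown of glycogen in the lysosome runs through acid alpha-glucosidase, encoded by Gaa. Gaa stood at 455.8 and 396.8 CPM in the resistant and 83 and 94.9 CPM in the normal libraries and rose by 2.26 ± 0.25 (adjusted p = 4.38e-05). Stbd1, which binds glycogen and is tied to its delivery to lysosomes, stood at 16.0 and 7.71 CPM in the resistant and 25.5 and 34.2 CPM in the normal libraries. Its log2 fold change of -1.34 ± 0.47 missed the threshold (adjusted p = 0.0502), which it passed under 8 of 14 alternatives; over all 14 its adjusted p ran from 0.00597 to 0.290. The Lafora disease genes were low. Nhlrc1 (malin) had 9 and 1 reads in the resistant and 17 and 14 in the normal libraries (-0.77 ± 0.79, adjusted p = 0.516), and Epm2a (laforin), not tested, had 2 and 0 against 12 and 8.

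Phosphorylase kinase, which turns phosphorylase on, is built from alpha, beta, gamma and calmodulin subunits. Phka1, the alpha subunit known from muscle, stood at 26.3 and 28.3 CPM in the resistant and 82.8 and 82.6 CPM in the normal libraries and fell by 1.60 ± 0.36 (adjusted p = 0.00498). The call was lost when normal replicate 1 was left out (adjusted p = 0.0580), and likewise with replicate 2 left out (adjusted p = 0.0660). Phka2, the alpha subunit known from liver, had -0.80 ± 0.36 on the log2 scale and missed the threshold (adjusted p = 0.123), with every resistant library (40.0 and 37.1 CPM) below every normal one (74.1 and 59.8 CPM). The beta subunit Phkb had 0.30 ± 0.37 (adjusted p = 0.587) and the gamma subunit Phkg2 -0.52 ± 0.42 (adjusted p = 0.409). Phkg1 had 0 and 1 reads in the resistant and 6 and 14 in the normal libraries and was not tested. Pgm2l1, a relative of the phosphoglucomutases, had 1.12 ± 0.48 (adjusted p = 0.101).

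Regulators further up the pathway were read from a list of 24 genes, of which 22 were tested, 1 rose and 3 fell, with a median log2 fold change of 0.07. Over all tested genes 15.5% rose and 13.9% fell. Ppp1r1a, inhibitor 1 of protein phosphatase 1, had 3 and 0 reads in the resistant and 54 and 96 reads in the normal libraries, so that pooled CPM were 26.8 times higher in normal tumour CAFs (95% counting interval 9.0 to 131.5; edgeR adjusted p = 8.14e-04). It passed the low-count filter through the normal libraries alone. Its 3 resistant reads were all in replicate 1, and its fitted log2 fold change of -4.64 became -3.67 without resistant replicate 2 and -8.97 without resistant replicate 1, which leaves no resistant read, so that the last value rests on the model and is no bound. Prkag2, a gamma subunit of the AMP-activated kinase whose mutations cause glycogen storage in the human heart, went from 37.7 and 40.4 CPM in the normal to 7.99 and 6.24 CPM in the resistant libraries and fell by 2.45 ± 0.44 (adjusted p = 0.00115). Regulatory subunits of protein kinase A, which relays hormone signals to phosphorylase kinase, went both ways. Prkar1b rose by 1.85 ± 0.41 (adjusted p = 0.00417) and Prkar2a fell by 1.0 ± 0.33 (adjusted p = 0.0380). Prkar1b lost its call with normal replicate 1 left out (adjusted p = 0.0594) or 2 (adjusted p = 0.103), as did Prkar2a (adjusted p = 0.421 and 0.248), which also missed the threshold with loess offsets (adjusted p = 0.0641) and with a minimum of 50 reads in 2 libraries (adjusted p = 0.0505).

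Named for their role and outside the rule for named genes, the catalytic subunits to which Ppp1r3c and Ppp1r3b bind were present in every library. Ppp1ca stood at 301 and 357.8 CPM in the resistant and 274.8 and 222.8 CPM in the normal libraries, a log2 fold change of 0.41 ± 0.24 (adjusted p = 0.247). Ppp1cb had -0.47 ± 0.28 (adjusted p = 0.240) and passed only without resistant replicate 2 (adjusted p = 0.0343), and Ppp1cc had 0.18 ± 0.34 (adjusted p = 0.743). The glycogen synthase kinase gene Gsk3b had -0.39 ± 0.25 (adjusted p = 0.284). Gsk3a differed more between replicates than between groups, with 36.1 and 6.97 CPM in the resistant and 33.9 and 11.1 CPM in the normal libraries (-0.05 ± 0.68, adjusted p = 0.964).

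In the authors' deposited table, Ppp1r3c, Ppp1r3b, Pygl and Pgm2 were called upregulated, with log2 fold changes of 10.13, 4.24, 4.15 and 2.27. Gys1, at 1.8 in the authors' deposited table, was not called there. The calls of that table reach down to 2 in size on its log2 scale and up to 0.0999 in adjusted p. The test statistic given there was 0 for Gpi1 at a log2 fold change of 0.84 and 0.09 for Ugdh at 1.03. Its p-values thus seem to come from a test against a minimum change, not against 0 as here. A gene not called there may still differ from 0. These calls rest on the same libraries, so nothing is read from them for genes of the set. Ppp1r3d (4.33) and Gaa (2.23) were called upregulated in the authors' deposited table, and Phka1 (-1.63) was not called.

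The 5 tested genes outside the set whose log2 CPM over the 4 libraries lay nearest to that of Ppp1r3c were Gria3, 3632451O06Rik, Ndrg2, Fam213b and Trim30d, at Euclidean distances of 0.72, 0.79, 0.89, 0.92 and 1.07. With 4 libraries in 2 groups this likeness mainly says that a gene was at or near 0 in both normal libraries and at a like level in both resistant ones. Gria3 stood at 46.8 and 41.5 CPM and Trim30d at 48.7 and 42.6 CPM in the resistant libraries, with 1 and 2 reads in all in the normal ones.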

How the data were processed

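The authors deposited raw read counts per gene symbol, a signal table of counts divided by 1 size factor per library, and a table with log2 fold changes, p-values, a test statistic (score) and calls for 15879 genes. The submitters' processing notes name the build mm9 and the tools TopHat2 2.1.1, HTSeq 0.7.2, bcl2fastq 2, DESeq2 and Picard 1.62. The role and settings of each, like the annotation, were not stated in the sources used. The labels' protocols name both a TruSeq kit and SMART-seq2, without saying which library had which. In the deposited signal table each value read back as a count over a constant, to a relative deviation of at most 5.11e-15.

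Counts were fitted with edgeR 4.0.16 in R 4.3.3 (filterByExpr with a minimum count of 10, TMM, glmQLFit and glmQLFTest, group as the only term), with Benjamini-Hochberg adjustment over 12001 genes and a threshold of 0.05. CPM use TMM-scaled library sizes. Replicates differed by more than counting noise (chi-square per degree of freedom 11.6 in normal and 17.8 in resistant tumour CAFs). Library totals alone moved the median gene by -0.14 (log2). Floors are 3 reads over the group. Exonic lengths came from GENCODE M21 (GRCm38) by symbol, for 94.1% of genes, and served as lengths only.

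The genes and lists were chosen with earlier results of these data known. The text names the 9 genes, the wider glycogen list, called genes of the other lists and the 5 nearest to Ppp1r3c; a few values that this covers are left out of the text. Alternatives were 4 scalings, 2 filters, DESeq2 1.42.0, limma 3.58.1 (voom), the likelihood ratio test, the replicate block and leaving out each library. On simulated counts for this comparison (11788 genes tested, 66 changed at each fold) 2-fold changes were recovered at 7.58%, 4-fold ones at 84.8% and 8-fold ones at 100%. Of the 130 calls, 3.08% were false. In the data 1857 genes were called higher and 1668 lower, far more than in the simulation. The adjusted threshold was therefore a stricter cut on the unadjusted p in the simulation. Its recovery, above all of 2-fold changes, may be lower than in the data.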

Additional observations from a re-analysis of the deposited data

How the results depend on the processing

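For the 9 glycogen genes only the size of the difference is compared across the 14 alternatives, since the set was chosen on this comparison. The log2 fold change ran from 3.85 to 4.78 for Ppp1r3b, 3.94 to 4.33 for Pygl, 1.63 to 2.01 for Gys1 and 2.07 to 2.50 for Pgm2. With 1 library left out at a time, the value of Gyg ran from -0.18 to 0.44 and that of Ugp2 from -0.048 to 0.44, so neither had a stable direction. Nhlrc1 (-3.03 to 0.091), Gsk3a (-1.66 to 0.87) and Ppp1cc (-0.24 to 0.51) also turned. The cause of these turns was not tested beyond the library left out.

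Of the wider glycogen list, 1 rose with at least 50 reads in 2 libraries, where Ppp1r3d was not tested. The number that fell was 2 in place of 1 with relative log expression, upper-quartile factors, library totals, no filter, limma-voom, the likelihood ratio test and the replicate block, the added gene being Stbd1 each time, and 0 to 2 with a library left out. Regulators that rose numbered 0 to 2 with a library left out, and glucose and UDP-glucose genes 1 to 8 higher and 0 to 1 lower. Over all genes, 1078 to 2024 rose and 951 to 2323 fell with a library left out; the lowest counts were without normal replicate 2, followed by 1198 and 1090 without normal replicate 1. A fit that leaves out a library takes the lone library of its group to vary like the other group.

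Without division by length the mean Pygl share was 65.6% in resistant and 11.4% in normal tumour CAFs, and the Ppp1r3c share 28.4% in resistant tumour CAFs, since these genes differ in exonic length from the others of their sets.

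With the replicate number as a block, 2257 genes rose and 2267 fell, against 1857 and 1668 without it. Deviations of same-numbered libraries correlated at r = 0.22 across genes, but the labels tie the numbers to no shared animal or day. Whether same-numbered libraries share more than a number is therefore not known. Depth limits the normal values of Ppp1r3c, Ppp1r3b and Ppp1r3d, which rest on 0 to 36 reads.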

Other observations

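Genes that bring glucose into the hexose phosphate pool or use UDP-glucose were read from a list of 19, of which 15 were tested. With edgeR's quasi-likelihood test over all genes 5 rose and none fell, where 15.5% of all tested genes rose and 13.9% fell, and the median log2 fold change was 0.37. The number that rose was 1 without normal replicate 1 and 2 without normal replicate 2. With all 4 libraries, at an unadjusted p under 0.05, 6 were higher and 0 lower, and limma-voom, DESeq2 and the likelihood ratio test called 0 lower. Ugdh, which turns UDP-glucose into UDP-glucuronate for matrix polysaccharides, stood at 476 and 512 CPM in the resistant and 240.3 and 235.1 CPM in the normal libraries and rose by 1.06 ± 0.23 (adjusted p = 0.00369). Ugcg, which places glucose on ceramide, stood at 121 and 140.6 CPM in the resistant and 74.8 and 61.4 CPM in the normal libraries and rose by 0.94 ± 0.31 (adjusted p = 0.0386). Gpi1, which interconverts glucose 6-phosphate and fructose 6-phosphate, rose by 0.87 ± 0.22 (adjusted p = 0.0113), and the glucose transporter genes Slc2a1 and Slc2a3 by 1.50 ± 0.30 (adjusted p = 0.00241) and 4.85 ± 0.56 (adjusted p = 4.97e-05).

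Of these 5, Slc2a3 passed the low-count filter through the resistant libraries alone, so a tested value could only be higher. With 1 library left out, its log2 fold change ran from 4.36 without normal replicate 1 to 5.65 without normal replicate 2. Without normal replicate 1 the adjusted p was 0.0579 for Ugdh, 0.323 for Ugcg, 0.0625 for Gpi1 and 0.0887 for Slc2a1. Without normal replicate 2 it was 0.0836 for Ugdh, 0.549 for Ugcg and 0.222 for Gpi1. With library totals alone or no low-count filter Ugcg did not pass (adjusted p = 0.0762 and 0.0554), nor did Gpi1 with loess offsets (adjusted p = 0.0948). G6pc, the glucose 6-phosphatase of liver, had no read in any library.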
